A study of Mus musculus with 4 samples.

Results

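Genes used as markers of outer radial glia were followed in bulk RNA sequencing of embryonic mouse cortex with and without a human SERPINA3 transgene. The set holds 8 of the 26433 genes in the count table, picked by name: Lifr, Il6st, Stat3, Ptprz1, Tnc, Hopx, Fam107a and Moxd1. The choice was made with earlier results of these data known. All 8 were among the 15786 genes with enough reads to be tested. The study asked whether SERPINA3 promotes outer radial glia in a brain that normally holds few of them. Both groups were embryos at embryonic day (E) 15 on a background labelled C57BL/6, with cerebral cortex as the labelled source and telencephalic tissue as the material named in the methods.

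The cKI f/+ group carried human SERPINA3 with a 3× flag tag at the Rosa26 locus, placed behind a CAG promoter and a STOP cassette flanked by loxP sites, and Nestin-Cre removed that cassette. Expression was therefore switched on in Nestin-positive progenitors, and their neuronal and glial progeny inherited it, so the model does not single out outer radial glia. The WT group consisted of littermates. The knock-in founders had been bred with B6D2F2 mice and the Nestin-Cre line was kept on C57BL/6, so the strain label does not give the whole ancestry. The human transgene itself was not analysed here. Each group had 2 libraries, KI2 and KI3 against WT1 and WT3, with 17423512 to 18119444 counted reads per library.

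Radial glia are the neural stem cells of the developing cortex. Ventricular radial glia divide at the lining of the ventricle, whereas outer radial glia have moved away from it, keep a basal fibre and are abundant in species with a folded cortex. They are known for making part of their own niche: tenascin-C in the matrix, the phosphatase receptor PTPRZ1 at the surface, and LIFR paired with gp130, the product of Il6st, through which leukemia inhibitory factor (LIF) activates JAK kinases and STAT3. Most of these genes are not restricted to outer radial glia, since ventricular radial glia, astrocytes, oligodendrocyte precursors and other cells also transcribe some of them. In bulk tissue, fewer cells of a type and less RNA per cell cannot be told apart.

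None of the 8 genes passed the test between cKI f/+ and WT. With edgeR's quasi-likelihood test and Benjamini-Hochberg adjustment over all genes tested, 0 of 8 had an adjusted p under 0.05, and DESeq2 and edgeR's likelihood ratio test also gave 0. At an unadjusted p under 0.05 the count was 1, Stat3, by the quasi-likelihood test, and also 1 by DESeq2's Wald test, where it was Ptprz1 (unadjusted p = 0.0311) and no longer Stat3 (unadjusted p = 0.0607). For the quasi-likelihood test, the background over all genes tested was 0.12% at the adjusted threshold and 4.6% at the unadjusted one, 2.26% with cKI f/+ higher. The DESeq2 count has no such background here. In CPM, the counts per 1000000 reads of a library, Stat3 and Il6st lay above both WT libraries in both cKI f/+ libraries, and Ptprz1 lay below. These 3 of 8 genes whose groups did not overlap stand beside a background of 33.9%, made up of 16% with cKI f/+ above and 18% with cKI f/+ below. Log2 fold changes of cKI f/+ over WT ran from -0.29 for Ptprz1 to 0.25 for Stat3, 5 above 0 and 3 below, and their median was 0.11 beside 0.0043 over all genes tested. Without WT1 that median was -0.10, and without WT3 it was 0.20.

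**Figure D1:**
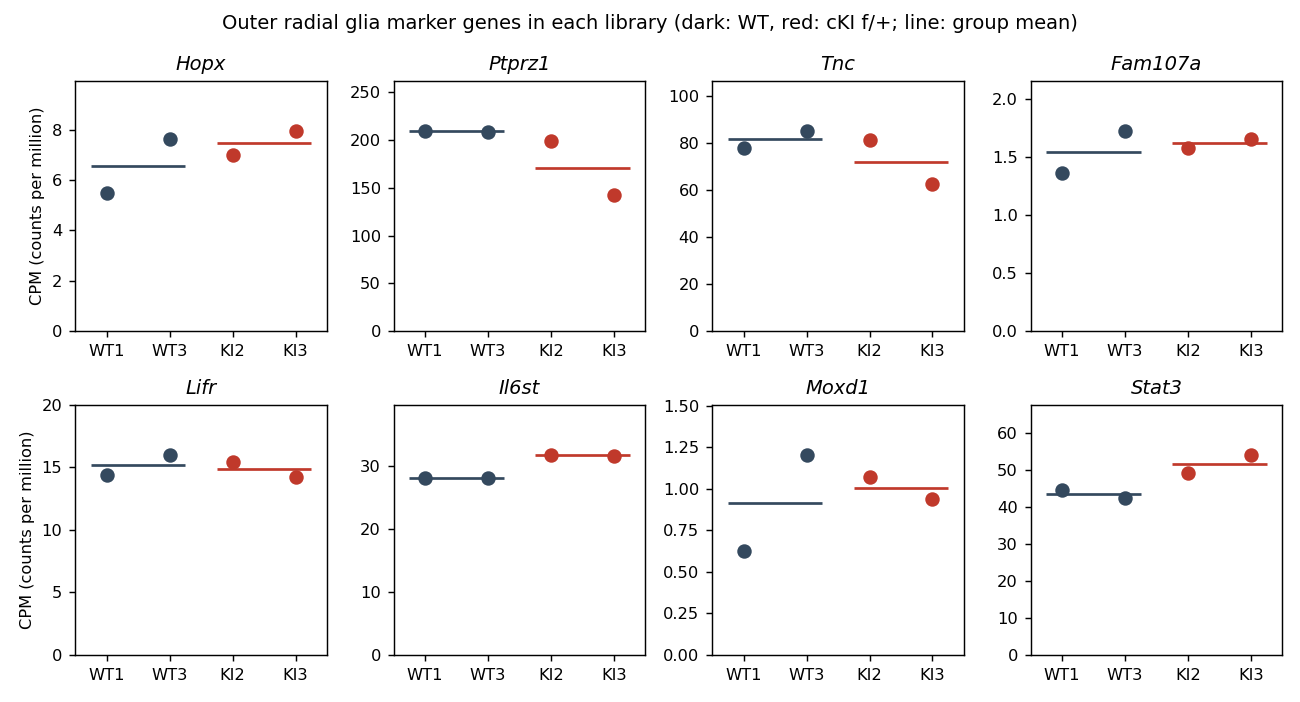
Counts scaled to library size (CPM, vertical axes from 0, one scale per gene) of the 8 outer radial glia markers in each library. Points are single libraries, dark for WT and red for cKI f/+, and lines are group means; the groups are separate for Ptprz1, Il6st and Stat3 and overlap for the other 5 genes.

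The libraries were comparable in depth, with TMM scaling factors between 0.995 and 1.003, but they differed in embryo sex and in markers of other cell types. Xist, which is transcribed from the inactive X chromosome, had 13223 counts in KI2, 11882 in KI3 and 5 in either WT library, while Y-linked Kdm5d had 0 in both cKI f/+ libraries and 951 and 918 in WT. Embryo sex and genotype therefore cannot be told apart, although all 8 markers are autosomal. KI3 stood apart in its choroid plexus markers: the sum of Ttr, Folr1, Clic6, Kl and Aqp1 was 64.0 CPM in KI3, 9.70 in KI2, 1.31 in WT1 and 2.47 in WT3, and 3 of the 4 tested had an unadjusted p under 0.05 in edgeR's quasi-likelihood test. Ttr, which encodes the transthyretin secreted by that epithelium, had 0 counts in WT1, 4 in WT3, 116 in KI2 and 956 in KI3, and Kl was also at 0 in some libraries. The 5 meningeal markers, Col1a1, Col1a2, Dcn, Lum and Slc6a13, summed to 13.5 and 11.0 CPM in KI2 and KI3 against 3.01 and 5.45 in WT1 and WT3; 3 of 3 tested had an unadjusted p under 0.05, and Lum and Slc6a13 were at 0 in some libraries and too low to test. Oligodendrocyte precursors, which transcribe Ptprz1, had 5 of 5 markers with log2 fold changes below 0, a median of -0.30 and sums of 15.7 and 15.3 CPM in KI2 and KI3 against 16.7 and 19.1 in WT1 and WT3, with 0 at an unadjusted p under 0.05. The 5 hemoglobin genes were also all below 0, 2 of them at an unadjusted p under 0.05. So were single markers of other lists: Aldh1l1 of astrocytes at -0.80, Dlx2 of the ventral telencephalon at -0.59 and Cx3cr1 of microglia at -0.60. The other tested astrocyte markers, Gfap at 0.37, Aqp4 at 0.31 and Slc1a2 at 0.13, lay above 0, and the median of that list was 0.22. Of the microglia markers, 2 lay above 0 and 3 below, with a median of -0.14. Nkx2-1, another ventral marker, lay above 0 at 1.94, on 19, 17, 6 and 3 counts in KI2, KI3, WT1 and WT3. None of these cell type markers was called by edgeR's quasi-likelihood test, whereas the sex-linked Xist and Kdm5d were (adjusted p = 1.4e-09 and 2.9e-07). The part of these cell types in the values of the 8 markers was not tested. Each fold change is also given without KI3, which takes out the library with the most choroid plexus RNA but leaves KI2, whose choroid plexus and meningeal sums were also above both WT libraries. Of the markers of the labelled tissue, Emx1, a transcription factor of the dorsal telencephalon, had 2908 to 3860 counts per library.

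Levels per exon length, in TPM (reads per base of merged exons, scaled to a total of 1000000 over all genes), ordered the genes by abundance. Ptprz1 came first at 47.2 ± 8.37 TPM and Tnc second at 35.0 ± 4.71 (SD, n = 4 libraries). The ranges of this pair met only through KI3, in which Ptprz1 was at 34.8 TPM, below the Tnc level of the 2 WT libraries. Stat3 at 17.7 ± 1.77 TPM and Hopx at 16.3 ± 2.25 were neighbours that did not differ beyond their spread by this length. Il6st followed at 9.52 ± 0.611 TPM and Lifr at 4.99 ± 0.270, so the shared receptor chain was the more abundant of the LIF receptor pair in every library. Fam107a, at 1.44 ± 0.119 TPM, and Moxd1, at 1.06 ± 0.263, closed the order and overlapped. These overlaps hold for merged exons only. With the longest transcript as length, the ranges of Ptprz1 and Tnc, of Stat3 and Hopx, and of Fam107a and Moxd1 did not meet.

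**Figure D2:**
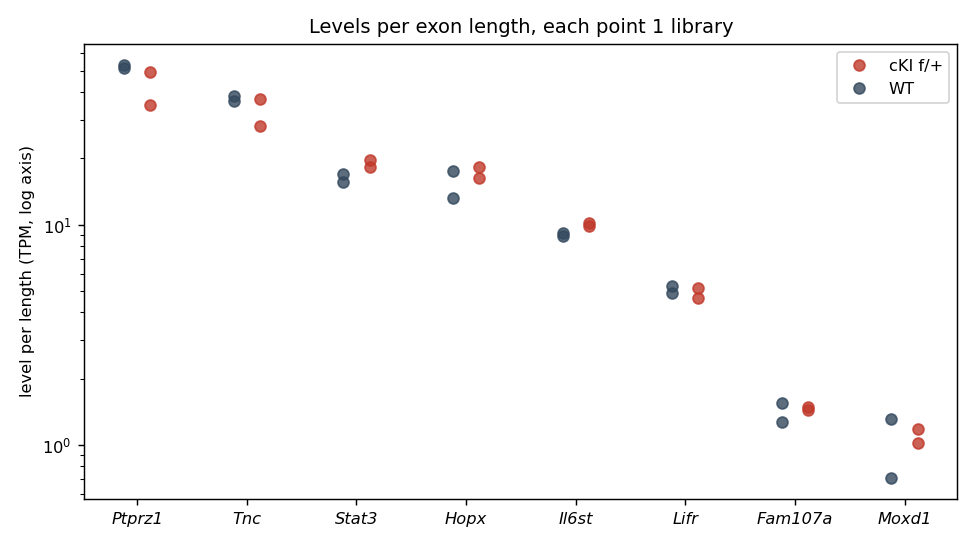
Level per exon length (TPM, logarithmic axis) of each outer radial glia marker, 1 point per library, dark for WT and red for cKI f/+, ordered by the mean over 4 libraries. Ptprz1 and Tnc lead, and Fam107a and Moxd1 are near 1 TPM.

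Lifr encodes the receptor chain that binds LIF. It lies on chromosome 15 at 7129559-7197489, plus strand (ENSMUSG00000054263, gene positions throughout being those of the table, on GRCm38). Its level was 14.4 CPM in WT1, 16.0 in WT3, 15.4 in KI2 and 14.2 in KI3, so the highest and the lowest library were a WT and a cKI f/+ library and the groups overlapped. On the log2 scale the fold change was -0.03 (SE 0.13, 95% interval -0.33 to 0.27, adjusted p = 0.994 in edgeR's quasi-likelihood test). Without KI3 it was 0.03.

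Il6st encodes gp130, the chain that LIFR and the related cytokine receptors share (chromosome 13, 112464070-112510086, plus strand, ENSMUSG00000021756). It was measured at 28.0 CPM in WT1, 28.1 in WT3, 31.8 in KI2 and 31.7 in KI3. Both cKI f/+ libraries were above both WT libraries, and within each group the libraries were nearly equal. Its log2 fold change was 0.18 (SE 0.10, 95% interval -0.04 to 0.40, adjusted p = 0.969 by the same test), and 0.19 without KI3. Leaving out each library in turn gave 0.16 to 0.19, the narrowest such range of the 8 genes.

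Stat3 encodes the transcription factor that gp130-bound JAK kinases phosphorylate (chromosome 11, 100885098-100939540, minus strand, ENSMUSG00000004040). Its level was 44.7 CPM in WT1, 42.6 in WT3, 49.2 in KI2 and 54.2 in KI3, again with both cKI f/+ libraries above both WT libraries. The fitted level was 18.9% higher in cKI f/+, with a 95% interval from 2.63% to 37.7%. On the log2 scale this was 0.25 (SE 0.09, 95% interval 0.04 to 0.46). The unadjusted p was 0.0258 in edgeR's quasi-likelihood test, 360th smallest of all genes tested, and the adjusted p was 0.969. The log2 fold change was 0.18 without KI3 and 0.30 without KI2. RNA abundance says nothing of STAT3 phosphorylation, the step that LIF controls directly.

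Around this receptor, the pathway list held 39 further genes, of which 37 had a row in the table and 32 were tested. None was called by edgeR's quasi-likelihood test and 1, Socs2, had an unadjusted p under 0.05, beside 4.6% of all genes tested. The median log2 fold change of the list was 0.07. Transcripts of the ligands were scarce: Lif had 0, 0, 1 and 0 counts in KI2, KI3, WT1 and WT3, at or under the floor of 3 counts that 0 observed reads allow, and Il6 had 1, 1, 2 and 1. Of the 5 ligands with enough reads to test, the cardiotrophin genes had the largest fold changes, with Ctf1 at 3.61 and 4.14 CPM in KI2 and KI3 against 2.95 and 3.33 in WT1 and WT3, and Ctf2 at 12, 11, 7 and 2 counts. Neither passed (adjusted p = 0.969 for both in edgeR's quasi-likelihood test), and Clcf1, a ligand of the ciliary neurotrophic factor receptor, had the lowest log2 fold change of these 5 at -0.11. Without WT3 that of Ctf2 was 0.69, and without WT1 2.41. Cntf, too low to test, had 8, 7, 4 and 4 counts in KI2, KI3, WT1 and WT3.

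Of the other receptor chains, Cntfr, the ciliary neurotrophic factor receptor that joins LIFR and gp130, was by far the most abundant. It stood at 110 CPM in KI2 and 123 in KI3 against 106 in WT1 and 107 in WT3, without overlap, with a log2 fold change of 0.14 (SE 0.08, adjusted p = 0.969 by edgeR's quasi-likelihood test). Without KI3 it was 0.06, and without KI2 0.20. Il6ra, the interleukin-6 receptor, and Osmr, the oncostatin M receptor, had log2 fold changes of 0.31 and -0.20. The kinases Jak1 and Jak2 had log2 fold changes of -0.01 and 0.01, and Ptpn11, the phosphatase SHP2 that gp130 recruits, 0.04.

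Feedback inhibitors and other STAT3 target genes had no called member. Of 8 inhibitors of JAK-STAT signalling, 6 had log2 fold changes above 0 and their median was 0.08. Socs2 was at 73.2 and 73.5 CPM in KI2 and KI3 against 58.3 and 67.7 in WT1 and WT3, a log2 fold change of 0.23 (SE 0.09, unadjusted p = 0.0394 and adjusted p = 0.969 in edgeR's quasi-likelihood test). Without WT1 it was 0.12 (unadjusted p = 0.248 in the same edgeR test), and without WT3 0.34. Socs3, the inhibitor that binds gp130 itself and a usual readout of STAT3 activity, was at 19.9 and 19.2 CPM against 17.0 and 20.1, so its groups overlapped. Socs1 and Pias1 had the largest log2 fold changes of the list in either direction, 0.25 and -0.17, and Ptpn2, which dephosphorylates JAK and STAT proteins, was its most abundant gene per length, at a log2 fold change of -0.03. The 10 tested STAT3 target genes divided into 5 above and 5 below 0, with a median of 0.01. They ran from Fos, an immediate early gene, at -0.93 to Gfap, the astrocyte filament gene, at 0.37. Gfap had only 19, 18, 11 and 17 counts in KI2, KI3, WT1 and WT3, and neither it nor Fos passed the test. With a library left out, Gfap ranged from 0.08 (without WT1) to 0.73 (without WT3) and Fos from -1.32 (without KI2) to -0.63 (without KI3). Mcl1, a survival gene and the most abundant target per length, had a log2 fold change of -0.07.

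**Figure D3:**
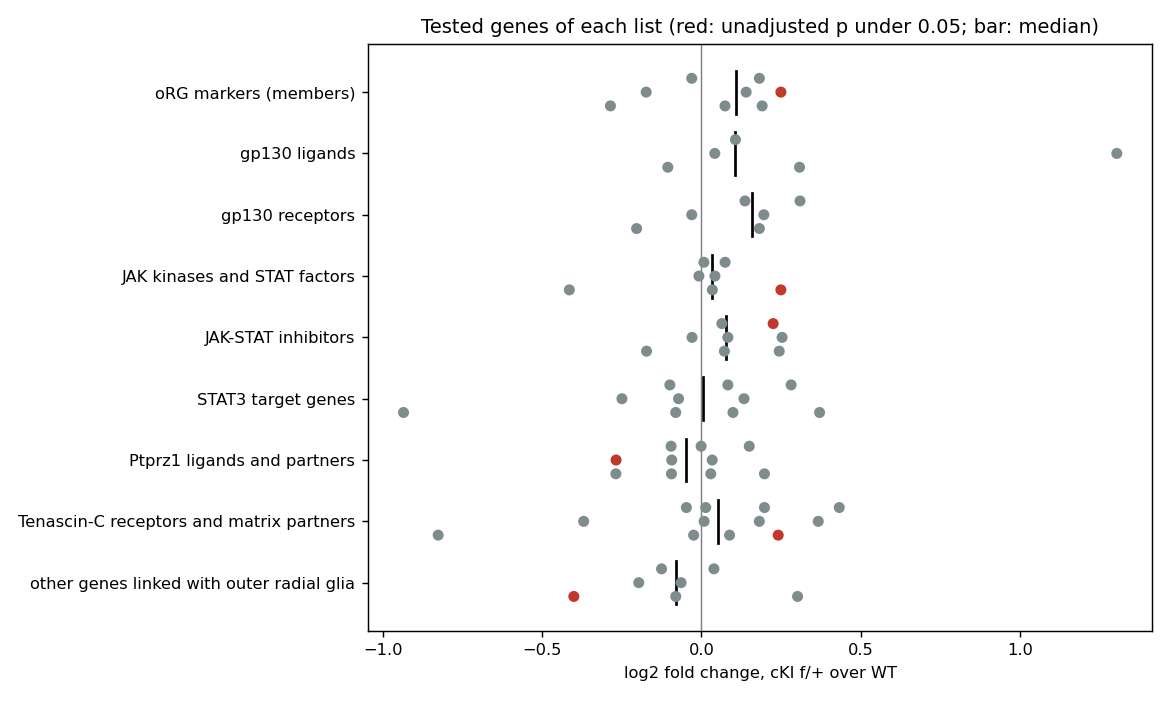
Log2 fold change of cKI f/+ over WT (horizontal axis) for each tested gene of the outer radial glia markers and of the lists of pathway and partner genes, with a bar at each list's median and red points where the unadjusted p of edgeR's quasi-likelihood test was under 0.05. The largest differences belong to genes of low count such as Ctf2, and no point passed the adjusted threshold.

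The search for STAT-type elements at these genes used the motif TTCNNNGAA, which reads the same on both strands, in RefSeq windows (GRCm38.p6) from 250 bases before to 50 after each transcription start. All 8 genes had at least 1 window, and 1 of 8 held the motif, Moxd1, beside 9.55% of the 27025 genes with a window. Of the 8 STAT3 target genes with a window, 2 held it, Socs3 and Gfap. The matches in Moxd1 and Socs3 are shown with their flanks, because Socs3 is the target with the best known dependence on STAT3 and Moxd1 the marker with a match. They are written 5′ to 3′ on the strand of the gene, capitals marking the motif (chr10:24223347-24223395, plus strand, and chr11:117969492-117969540, minus strand). It starts 150 bases before the RefSeq start site in Moxd1 and 154 bases before it in Socs3. The Socs3 stretch lies inside the span of that gene in the count table (117966079-117970047), which begins upstream of this RefSeq start.
Moxd1: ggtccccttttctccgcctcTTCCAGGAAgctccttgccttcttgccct
Socs3: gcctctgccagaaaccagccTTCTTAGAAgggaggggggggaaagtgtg
A match is a description of letters and not a binding site, and no match says only that these letters are not in the window.

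The 100 bases before the start are also given for the 3 markers whose groups did not overlap, so that the sequences of the pair with the higher and the one with the lower cKI f/+ values can be set side by side. Capitals mark GGGCGG or its reverse complement CCGCCC, the core of a GC box. Over whole windows of 300 bases, longer than the stretches printed, it was found on either strand in 35.7% of all windows. Every marker but Hopx had at least 1 window that held it, so it is not particular to these 3 genes.
Stat3: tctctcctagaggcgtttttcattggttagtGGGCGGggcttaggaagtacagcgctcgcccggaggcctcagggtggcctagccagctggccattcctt
Il6st: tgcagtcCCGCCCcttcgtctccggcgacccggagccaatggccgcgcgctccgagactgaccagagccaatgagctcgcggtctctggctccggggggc
Ptprz1: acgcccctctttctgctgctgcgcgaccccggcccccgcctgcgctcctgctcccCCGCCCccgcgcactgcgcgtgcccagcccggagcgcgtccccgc
These stretches are at chr11:100939541-100939640 on the minus strand, chr13:112463970-112464069 on the plus strand and chr6:22875402-22875501 on the plus strand. The whole windows were rich in G and C, at 60.7% for Stat3, 68.3% for Il6st and 71.7% for Ptprz1 against a median of 52.7% over all windows. Lifr had the highest GC share of the markers, 81.3% with 53 CpG dinucleotides in its first window. The first window of Tnc, at 47.3%, held 10 CpG and a match to TATAAA on either strand, which 13.6% of all windows hold. That match was not in the 100 bases before the Tnc start.

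Ptprz1 encodes a transmembrane phosphatase of radial glia and oligodendrocyte precursors whose extracellular domain is decorated with chondroitin sulphate and binds tenascins, contactin and pleiotrophin (chromosome 6, 22875502-23052916, plus strand, ENSMUSG00000068748). Its level was 209 CPM in WT1, 209 in WT3, 199 in KI2 and 143 in KI3. The WT libraries were equal within 1 CPM (209 ± 0.361, SD, n = 2), KI2 was a little lower, and KI3 was far lower, so the cKI f/+ mean of 171 carried an SD of 39.4 (n = 2). The fitted change was -17.9% in cKI f/+, with a 95% interval from -33.4% to 1.13%. The log2 fold change was -0.29 (SE 0.13, 95% interval -0.59 to 0.02), the unadjusted p was 0.0611 and the adjusted p 0.969 in edgeR's quasi-likelihood test.

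The Ptprz1 difference rested on KI3. Without KI3 the log2 fold change was -0.06 (adjusted p = 0.9998 in the same test), and without KI2 it was -0.56, which passed (adjusted p = 0.0422), the only call on any of the 8 genes at the adjusted threshold in the settings tried. The log2 difference of KI3 from KI2 was -0.49, and among the 7145 tested genes with a mean of at least 500 counts, 0.840% had a difference of that size or more between these libraries in either direction. The same 2 libraries differed in Tnc, at -0.39, a size reached by 1.95% of these genes. With 1 library on each side of that gap, the data do not say which of KI2 and KI3 is nearer to the cKI f/+ level of Ptprz1.

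Tnc encodes tenascin-C, a matrix glycoprotein of the progenitor niche and a ligand of PTPRZ1 (chromosome 4, 63959785-64047015, minus strand, ENSMUSG00000028364). It was at 78.1 CPM in WT1, 85.2 in WT3, 81.6 in KI2 and 62.7 in KI3, so KI2 lay between the WT libraries and only KI3 was below them. The log2 fold change was -0.17 (SE 0.12, 95% interval -0.45 to 0.10, adjusted p = 0.969 in edgeR's quasi-likelihood test). Without KI3 it was 0.01, with the sign turned.

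**Figure D4:**
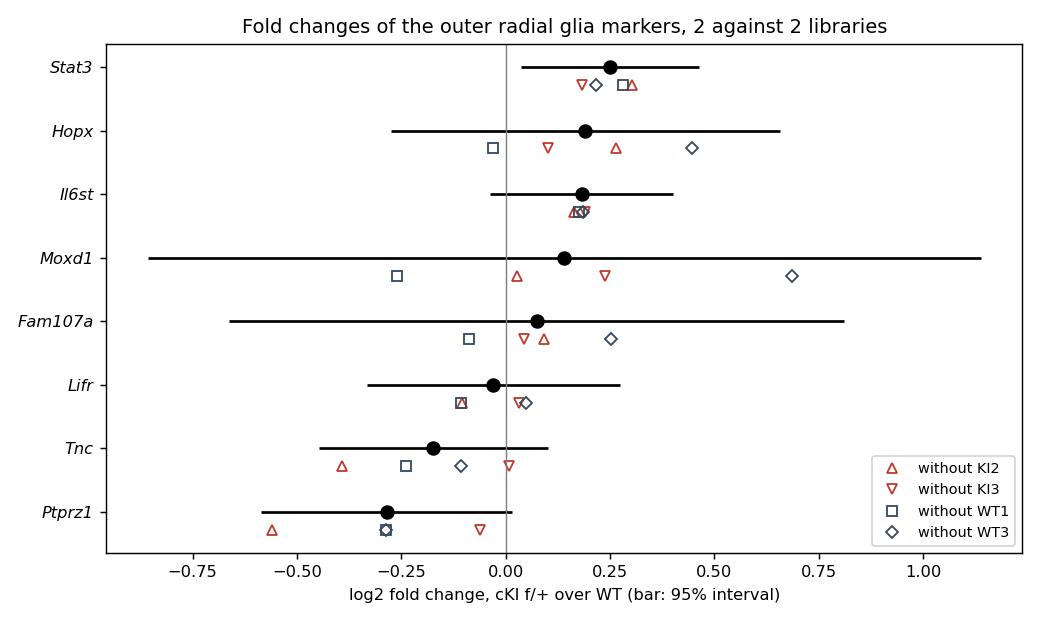
Log2 fold change of cKI f/+ over WT for the 8 outer radial glia markers (horizontal axis), with the estimate from 2 against 2 libraries as a filled point, its 95% interval as a bar and the estimates without each library as open symbols. Ptprz1 lies at -0.56 without KI2 and at -0.06 without KI3, whereas the 4 estimates of Il6st lie between 0.16 and 0.19.

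Ligands and partners of the pair were read for the same pattern. Of 24 such genes, 21 were tested and 0 were called by edgeR's quasi-likelihood test. At an unadjusted p under 0.05 there were 2, Ptn and Bcan, in opposite directions, beside 4.6% of all genes tested. Ptn encodes pleiotrophin, a secreted ligand of PTPRZ1, and was at 276 CPM in KI2 and 265 in KI3 against 328 in WT1 and 325 in WT3. Both cKI f/+ libraries were below both WT libraries, with a log2 fold change of -0.27 (SE 0.07, unadjusted p = 0.00527 and adjusted p = 0.814), and -0.23 without KI3. Mdk, which encodes the related ligand midkine and was the most abundant gene of the Ptprz1 partners per length, was at 217 CPM in WT1, 213 in WT3, 211 in KI2 and 264 in KI3, so KI3 was high where it was low for the receptor. Cntn1, a neuronal adhesion molecule that PTPRZ1 binds, was at 9.37 CPM in WT1, 10.1 in WT3, 13.4 in KI2 and 8.89 in KI3, and Alk, a receptor kinase linked with pleiotrophin, had a log2 fold change of -0.27.

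In the matrix list, Bcan, the proteoglycan brevican, was at 115 CPM in KI2 and 109 in KI3 against 96.5 in WT1 and 93.4 in WT3, a log2 fold change of 0.24 (SE 0.08, unadjusted p = 0.0114 and adjusted p = 0.969 in edgeR's quasi-likelihood test). Tnr, the tenascin of the nervous system, was at 21.9 CPM in WT1, 16.9 in WT3, 22.3 in KI2 and 13.9 in KI3, and Vcan, the proteoglycan versican, at 144, 123, 172 and 129 in the same order. Both had their KI3 value under their KI2 value, by 0.69 and 0.43 on the log2 scale, in the direction of Ptprz1 and Tnc. Ncan, the proteoglycan neurocan and the most abundant gene of the list per length, had its KI3 value above its KI2 value, at 490 and 451 CPM. The integrin genes Itgb3 and Itga8 had log2 fold changes of 0.43 and -0.83, the extremes of the tested genes of this list, and did not pass. With a library left out, Itgb3 ranged from 0.14 (without WT3) to 0.81 (without WT1) and Itga8 from -1.27 (without KI2) to -0.49 (without KI3).

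Hopx encodes a small homeodomain protein without DNA contacts of its own (chromosome 5, 77086988-77115121, minus strand, ENSMUSG00000059325). The study stained its protein as a marker of outer radial glia. Its other evidence included SOX2-positive cells without TBR2 or with phosphorylated vimentin in the expanded subventricular zone. It also scored cleavage angles of ventricular radial glia. The Hopx RNA level was 5.51 CPM in WT1, 7.63 in WT3, 6.99 in KI2 and 7.95 in KI3, from 97 to 144 counts. KI3 was highest and WT1 lowest, but WT3 lay between the cKI f/+ libraries, so the groups overlapped. The means were 7.47 ± 0.676 CPM in cKI f/+ and 6.57 ± 1.504 in WT (SD, n = 2), and the log2 fold change was 0.19 (SE 0.21, 95% interval -0.28 to 0.66, adjusted p = 0.987 in edgeR's quasi-likelihood test). In percent, that interval ran from -17.4% to 57.7%, so a change of moderate size in whole tissue was not detectable with these libraries. The value was 0.10 without KI3, without WT1 it turned to -0.03, and without WT3 it was 0.45.

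The genes nearest to Hopx in their pattern over the 4 libraries were Wls, Cacng2, Gm29202, Mrm1 and Nefm, with root mean square distances of 0.0111 to 0.0260 on the centred log2 CPM scale. They shared its order, with KI3 highest, then WT3, KI2 and WT1. Over all tested genes, 52 lay within 0.05 of Hopx, and with 4 libraries such likeness is a description only.

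Fam107a encodes an actin-associated protein and is among the most used outer radial glia markers in human cortex (chromosome 14, 8296274-8318023, minus strand, ENSMUSG00000021750). It had 28, 30, 24 and 30 counts in KI2, KI3, WT1 and WT3, or 1.58, 1.66, 1.36 and 1.72 CPM. The WT libraries enclosed both cKI f/+ libraries. Its log2 fold change was 0.07 (SE 0.33, 95% interval -0.66 to 0.81, adjusted p = 0.994 in edgeR's quasi-likelihood test) and 0.04 without KI3. Without WT1 it turned to -0.09, and without WT3 it was 0.25.

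Moxd1 encodes a monooxygenase-like protein of the secretory pathway (chromosome 10, 24223517-24302790, plus strand, ENSMUSG00000020000). It was the least abundant marker, with 19, 17, 11 and 21 counts in KI2, KI3, WT1 and WT3, or 1.07, 0.938, 0.624 and 1.21 CPM. The lowest and the highest value were both in WT, and the gap between them, 0.95 on the log2 scale, enclosed both cKI f/+ libraries. The log2 fold change was 0.14 (SE 0.44, adjusted p = 0.994 in edgeR's quasi-likelihood test), with a 95% interval from -0.86 to 1.14 that spans a large change either way. Without KI3 it was 0.24, without WT1 it turned to -0.26, and without WT3 it was 0.69.

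Read by abundance, the markers fell into well measured and poorly measured genes. On the log2 scale the 95% interval reached from 0.21 to either side for Stat3 to 0.998 for Moxd1. Moxd1 and Fam107a, the 2 genes with the fewest counts, had the widest intervals, but Ptprz1, with the most counts, had a wider one than Stat3, Il6st and Tnc. Within all reads of the 8 genes, Ptprz1 supplied 54.8% in WT1, 53.4% in WT3, 51.4% in KI2 and 45.2% in KI3, whereas Hopx supplied 1.44% to 2.51%. A summed marker level would therefore mostly have followed Ptprz1, and the genes were left as single values.

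Markers of other progenitors were compared to place these values. Of 8 general radial glia markers, Pax6, Sox2, Nes, Vim, Hes1, Hes5, Fabp7 and Slc1a3, 0 had an unadjusted p under 0.05 in edgeR's quasi-likelihood test, with a median log2 fold change of 0.04 and sums of 2224 to 2380 CPM. The ventricular radial glia list had a median of -0.10 over 4 tested genes, and 4 intermediate progenitor markers a median of 0.03, each with 0 past the adjusted threshold. Among other genes linked with outer radial glia, 7 were tested and 1, Acsbg1, had an unadjusted p under 0.05 by the same test, beside 4.6% of all genes tested. Acsbg1, a fatty acid activating enzyme of glia, was at 13.5 and 15.1 CPM in KI2 and KI3 against 20.04 and 17.8 in WT1 and WT3. Its log2 fold change was -0.40 (SE 0.13, adjusted p = 0.969). Bmp7, a growth factor, had the largest positive log2 fold change of that list at 0.30, and Fabp7, a fatty acid binding protein of radial glia, was its most abundant gene per length at -0.06.

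What the markers share beyond the name of the cell type was limited. By their annotated gene ontology terms, Lifr and Il6st are joined in the leukemia inhibitory factor signalling pathway, a term that 3 tested genes carry, and Il6st and Stat3 in interleukin-6-mediated signalling, which 7 carry. Tnc, Lifr and Il6st share positive regulation of cell proliferation, a term of 2.47% of tested genes with such annotation. Hopx, Tnc and Stat3 each overlap a gene on the opposite strand, Hopxos, 8030451A03Rik and Stat5a. Whether counting used strand is not given in the sources used here, but these neighbours had at most 14 counts in any library.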

How the data were processed

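Total RNA was extracted with TRIzol and sequenced on an Illumina HiSeq instrument. For 2 cKI f/+ and 2 WT libraries, the authors deposited unnormalised counts of reads per gene. The submitters' notes name Bowtie2 2.2.3, TopHat2 2.0.12, HTSeq 0.6.0 and mm9 without their roles, whereas the table's positions are those of GRCm38. The authors' own comparison columns (mean normalised count, fold change, p-value and adjusted p-value) were not used. Columns were assigned to a genotype by name and not to single samples, since KI3 and WT1 match no sample's number. The labels describe triplicates, and 2 libraries per group were analysed here. The study defines biological replicates of its mouse experiments in general as different embryos, but neither the labels nor the table say which of these libraries came from separate embryos, so p-values measure the spread between these libraries, which may be technical. Their counts differed by more than sampling noise within each group (chi-square per degree of freedom 5.63 in cKI f/+ and 7.49 in WT).

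Counts were scaled by TMM, filtered by filterByExpr and tested with edgeR 4.0.16 (glmQLFit and glmQLFTest, R 4.3.3), with Benjamini-Hochberg adjustment over 15786 genes and a threshold of 0.05. The 95% intervals come from the fit. The fitting code was tested on simulated data. The smallest two-sided p that an exact permutation of 2 against 2 libraries allows is 0.333, so none was run. CPM are counts scaled to the library total, and 3 counts, the limit that 0 observed reads allow, are 0.166 to 0.172 CPM. Levels per length used merged exons of GENCODE M21. DESeq2 1.42.0, other scalings, other filters, the autosomes alone and each library left out were alternatives. The genes and lists were chosen with earlier results of these data known. Named were the 8 markers and, of each list, the most abundant gene per length, the extremes of fold change, any gene past a threshold and others by role, plus the 5 genes nearest to Hopx.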

Additional observations from a re-analysis of the deposited data

How the results depend on the processing

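No paired analysis was possible because KI3 and WT3 are the only libraries with a number in common, and nothing says that this number ties them to each other. Each fit without a library leaves 1 sample in a group, which is assumed to vary like the other group, and the causes of the changes were not tested.

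For the 8 markers, the count of calls was 0 and became 1 (Ptprz1) without KI2, with a range of 0 to 1 over the left-out libraries, and 1 (Stat3) at an unadjusted p under 0.05. The log2 fold change ranged over left-out libraries from -0.030 to 0.45 for Hopx, -0.56 to -0.063 for Ptprz1, -0.39 to 0.0090 for Tnc, -0.088 to 0.25 for Fam107a, -0.11 to 0.048 for Lifr, 0.16 to 0.19 for Il6st, -0.26 to 0.69 for Moxd1 and 0.18 to 0.30 for Stat3, and their median from -0.10 to 0.20. Under the other scalings, filters and tests, all 64 values of the markers and 242 of the other named genes kept their direction and their side of the adjusted threshold. At an unadjusted p under 0.05, DESeq2's Wald test lost Stat3 and Socs2 and gained Ptprz1. Ctf2, not under that threshold in the main fit, was under it in some other scaling, filter or test. With a library left out, genes crossed that threshold both ways in edgeR's quasi-likelihood test. Stat3 was lost without KI3 or WT3, and Socs2 without KI2, KI3 or WT1. Ptn was lost without KI3, Bcan without KI2 and Acsbg1 without KI2 or WT1. Tnc was gained without KI2, and Ptprz1 without KI2, WT1 or WT3. Vcan, Fabp7, Tnr, Mdk and others were each gained without some library. The pathway, partner and other linked genes had 0 calls, and 4 of 60 tested at an unadjusted p under 0.05, beside 4.6% of all genes tested. Over all genes, 19 calls became 11 on the autosomes alone, 6 when every library had to reach 10 counts, 54 with edgeR's likelihood ratio test, 726 at an unadjusted p under 0.05 and 48 to 71 with a library left out. With the longest transcript as length, levels were 63.2 TPM for Ptprz1, 29.0 for Tnc, 1.27 for Fam107a, 4.17 for Lifr and 21.1 for Stat3.

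The sign of other named genes turned for some left-out library, with ranges of -0.50 to 0.19 for Clcf1, -0.25 to 0.84 for Il6ra, -0.041 to 0.13 for Ptpn11, -0.078 to 0.018 for Ptpn2, -0.45 to 1.66 for Socs1, -0.014 to 0.29 for Mdk, -0.14 to 0.47 for Cntn1, -0.080 to 0.019 for Ncan, -0.22 to 0.11 for Fabp7, -0.038 to 0.56 for Bmp7, -0.037 to 0.21 for Socs3, -0.10 to 0.071 for Jak1, -0.10 to 0.10 for Jak2, -0.059 to 0.38 for Vcan and -0.49 to 0.21 for Tnr. Without a turn of sign, the ends of the range differed in size by over 1.5 times for Cntfr (0.061 to 0.20), Socs2 (0.12 to 0.34), Ctf2 (0.69 to 2.41), Gfap (0.082 to 0.73), Fos (-1.32 to -0.63), Itgb3 (0.14 to 0.81), Itga8 (-1.27 to -0.49), Osmr (-0.38 to -0.058) and Mcl1 (-0.13 to -0.017). The same held for Ctf1 (0.21 to 0.40), Pias1 (-0.23 to -0.12), Alk (-0.32 to -0.21) and Acsbg1 (-0.48 to -0.32). Depth limits Moxd1 and Fam107a most, which had 11 to 30 counts per library.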
